A study of Mus musculus with 8 samples.

Results

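The Gimap genes encode small GTPases of the immunity-associated nucleotide binding protein family and lie side by side in 1 cluster on mouse chromosome 6. They were taken as every gene of the deposited table whose symbol starts with Gimap, which gave 8 of 10720 genes, namely Gimap1, Gimap3, Gimap4, Gimap5, Gimap6, Gimap7, Gimap8 and Gimap9. Their level, the share of cells that held them and their co-detection in single cells were examined in hematopoietic stem cells (HSCs) from bone marrow of adult C57BL/6 mice. Control mice (WT) carried floxed Med23 alleles (Med23 L/L) without the Mx1-cre transgene, and their KO littermates were Med23 L/L with Mx1-cre, an interferon-driven recombinase that is switched on by poly(I:C) in blood cells and also in other tissues. The study states that poly(I:C) was injected into mice to induce deletion, and its blood counts came from WT and KO mice so treated. Med23 encodes a subunit of the Mediator complex. Cells were sorted as LSK CD150+CD34-CD48- and picked by hand. Their polyadenylated RNA was copied with barcoded oligo-dT primers, so that a unique molecular identifier (UMI) counted each captured molecule once.

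GIMAP proteins are known mainly from lymphocytes, where several members control survival of resting T and B cells. They bind GTP and sit on the membranes of organelles such as lysosomes, mitochondria and the endoplasmic reticulum. Loss of Gimap5 causes loss of peripheral T cells in rodents, Gimap1 is needed for mature T and B lymphocytes, and Gimap6 binds an Atg8-family protein of the autophagy machinery. Gimap3 has been placed at mitochondria and linked to Bcl2 family proteins, and Gimap4 speeds the death of T cells that have received a death signal.

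The table names each cell by genotype but not by library, so the 4 libraries of each genotype formed 1 pool, and none of the differences could be checked against replicates. With the study's minimum of 2000 detected genes and 20000 UMIs, 259 cells labelled WT and 234 labelled KO were kept, with a median of 59649 and 50281 UMIs. Intervals are 95% intervals that cover counting error only, and counting error is not the spread between mice. For Med23, 122 UMIs were found in WT and 117 in KO (log2 ratio 0.35, interval -0.03 to 0.73). The summed count of the targeted gene was thus not lower under the KO label. In KO, 1 cell held 28 of the 117 UMIs (23.9%) and 5 cells held 65.0%. In cells thinned to 20000 UMIs, Med23 was found in 8.49% of WT cells (5.40 to 12.6) and 5.98% of KO cells (3.31 to 9.83). Without thinning the shares were 18.1% and 11.5%. Which exon is floxed is not given in the sources used here, and molecules counted from the 3′ end check nothing where that end lies outside the deleted part, so WT and KO below name the pools so labelled. Transcripts of oocyte genes exceeded 1000 counts per 1000000 UMIs (CPM) in 70 kept WT cells (27.0%) and 3 kept KO cells (1.28%), and values are given with and without these cells where they matter. The sort markers of HSCs were all in the table, 14 of 14 genes, and Slamf1, which encodes CD150, had 837 UMIs in WT and 132 in KO. Of 19 T cell markers only 4 were in the table, and Cd3d, Cd3e and Cd3g were not among them.

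The start regions of 4 members are shown because Gimap1 and Gimap6 made up most of the family's UMIs, Gimap5 came next, and Gimap4 had the largest difference among members with over 3 UMIs in each pool. Each run holds the 250 bases before the RefSeq start in build GRCm38.p6, on the gene's own strand. Capitals mark matches, on either strand, to the ETS core GGAAGT, the RUNX core TGTGGT, the GATA motif AGATAA, the CCAAT box CCAAT or the TATA box TATAAA, which do not overlap one another here.
Gimap1, chr6:48738797-48739046, plus strand: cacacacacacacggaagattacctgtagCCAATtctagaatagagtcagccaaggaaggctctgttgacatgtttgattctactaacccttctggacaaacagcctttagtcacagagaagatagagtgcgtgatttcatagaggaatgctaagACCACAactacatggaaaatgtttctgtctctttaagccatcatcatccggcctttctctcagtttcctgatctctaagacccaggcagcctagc
Gimap6, chr6:48708245-48708494, minus strand: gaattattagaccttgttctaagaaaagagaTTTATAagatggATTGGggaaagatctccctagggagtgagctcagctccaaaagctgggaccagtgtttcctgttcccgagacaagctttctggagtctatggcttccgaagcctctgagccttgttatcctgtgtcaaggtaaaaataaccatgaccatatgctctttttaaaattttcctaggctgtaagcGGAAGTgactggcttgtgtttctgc
Gimap5, chr6:48745947-48746196, plus strand: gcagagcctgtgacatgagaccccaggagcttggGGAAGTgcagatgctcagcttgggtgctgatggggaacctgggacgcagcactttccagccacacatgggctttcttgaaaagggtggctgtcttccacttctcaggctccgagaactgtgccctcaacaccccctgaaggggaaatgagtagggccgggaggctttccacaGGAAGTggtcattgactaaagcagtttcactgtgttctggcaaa
Gimap4, chr6:48684328-48684577, plus strand: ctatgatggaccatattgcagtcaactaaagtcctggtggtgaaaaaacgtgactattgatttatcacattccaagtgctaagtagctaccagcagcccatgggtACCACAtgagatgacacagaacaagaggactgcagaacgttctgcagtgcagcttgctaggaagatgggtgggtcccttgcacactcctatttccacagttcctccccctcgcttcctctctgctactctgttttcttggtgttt

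All 8 members had an entry, 9 windows in total since Gimap8 has 2 starts. Bases just after the start were found somewhere in a GENCODE transcript of the gene for every window but that of Gimap6. Why those of Gimap6 were not found was not examined. The ETS core was found at Gimap6 and Gimap5, against 19.7% of 32851 mouse windows of the same length. The RUNX core was found at Gimap4, Gimap7 and Gimap1 (14.0% of all windows), the CCAAT box at Gimap9, Gimap6 and Gimap1 (33.8%), and TATAAA only at Gimap6 (12.4%). No member window held AGATAA, which 9.99% of all windows held. Their GC content ran from 43.6% at Gimap6 to 61.2% at Gimap9. No motif was thus common to the 8 members, and a match in letters is not evidence of binding.

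Across the cluster the genes ran in the order Gimap8, Gimap9, Gimap4, Gimap6, Gimap7, Gimap1, Gimap5 and Gimap3, with Gimap6 and Gimap3 on the minus strand and no other gene of the table among them. Only 1 of 28 pairs of members shared any 50-base stretch in their GENCODE transcripts. Gimap3 and Gimap5 shared 190 such windows, 7.52% of those of Gimap3 and 4.53% of those of Gimap5. The shared windows did not form 1 continuous stretch, and all lay 780 bases or more from the 3′ end of both. Reads from these windows could have been counted to either gene. Gimap1 is overlapped by an antisense gene, Gimap1os, and Gimap7, Gimap1 and Gimap5 by a readthrough gene on their own strand, so their counts carry that uncertainty.

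The level of the family was dominated by Gimap1 and Gimap6 in both pools. Molecules were counted from the 3′ end, so counts were not divided by length. In WT cells Gimap6 had 6921 UMIs (322 CPM, interval 315 to 330) and Gimap1 had 6835 (318 CPM, 311 to 326), and the order of these neighbours was within counting error. They ranked 439th and 444th of 10720 genes. Gimap5 followed with 2586 UMIs (120 CPM), Gimap9 with 1412 (65.7 CPM) and Gimap8 with 564 (26.3 CPM). The scarce members were Gimap4 with 242 UMIs (11.3 CPM), Gimap3 with 205 (9.55 CPM) and Gimap7, a member that acts as a GTPase with its relatives, with 65 (3.03 CPM). Gimap4 and Gimap3 were again neighbours whose intervals, 9.89 to 12.8 CPM and 8.28 to 10.9 CPM, overlapped.

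In the KO pool the abundant members kept nearly the same mutual proportions at a lower level. Gimap1 had 3602 UMIs (223 CPM, 215 to 230) and Gimap6 had 3586 (222 CPM, 214 to 229), at ranks 700 and 705. Gimap5 had 1307 UMIs (80.8 CPM), Gimap9 980 (60.6 CPM) and Gimap8 256 (15.8 CPM). Below these stood Gimap7 with 59 UMIs (3.65 CPM), Gimap4 with 29 (1.79 CPM) and Gimap3 with 1 (0.0618 CPM). Gimap1 and Gimap6 together took 73.1% of family UMIs in WT and 73.2% in KO. The share of Gimap9 went from 7.50% to 9.98% and that of Gimap4 from 1.29% to 0.295%.

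**Figure D1:**
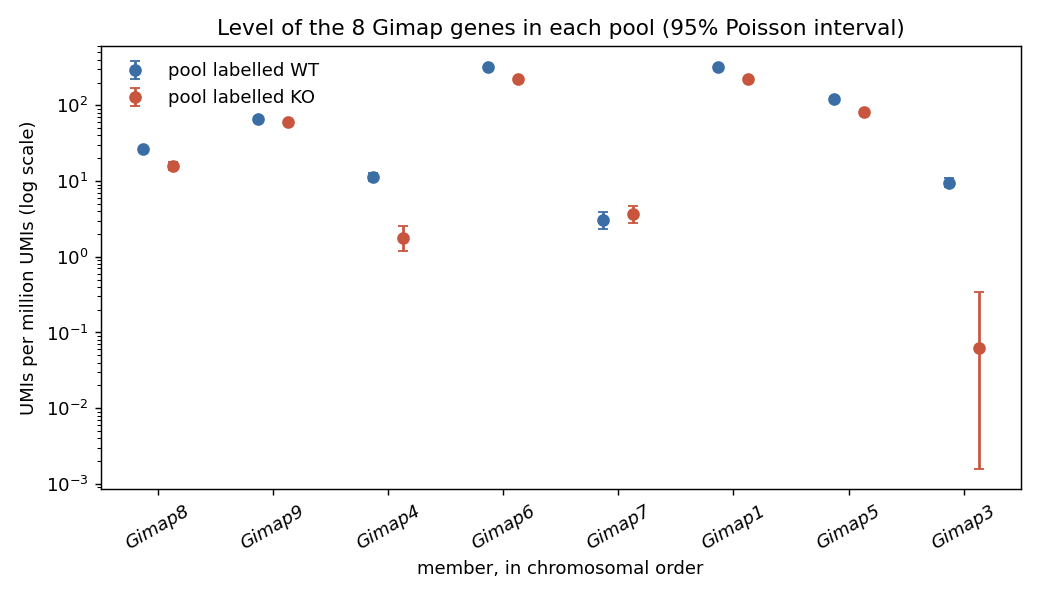
Level of each Gimap gene, in CPM on a log axis, in the pool labelled WT (259 cells) and the pool labelled KO (234 cells), in chromosomal order; bars are 95% Poisson intervals. Gimap1, Gimap6 and Gimap5 lie highest in both pools, and Gimap3 rests on 1 UMI in KO.

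Taking the 8 genes as 1 sum, the WT pool held 18830 Gimap UMIs and the KO pool 9820, or 877 CPM (864 to 889) and 607 CPM (595 to 619). The log2 ratio of KO over WT was -0.53 (-0.57 to -0.50). Without the cells with oocyte transcripts it was -0.57 (-0.61 to -0.53). With Gimap1 and Gimap6 left out, a choice made after seeing the data, the remaining 6 genes gave -0.54.

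The 3 most abundant members had like ratios, with log2 values of -0.52 (-0.57 to -0.46) for Gimap1, -0.54 (-0.60 to -0.48) for Gimap6 and -0.58 (-0.67 to -0.48) for Gimap5. Gimap8, which carries several GTPase domains, had -0.73 (-0.95 to -0.52). The ratio of Gimap9 was nearest to 0 among members below it, at -0.12, and its interval ran from -0.24 to just above 0. Without oocyte-transcript cells the Gimap9 ratio was -0.31 (-0.43 to -0.18). Gimap7 had 0.27 (-0.26 to 0.80), an interval that spans 0, and its sign turned to -0.31 in cells thinned to 20000 UMIs and to -0.59 with the authors' normalized values.

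Gimap4 and Gimap3 differed most. Gimap4 had a log2 ratio of -2.65 (-3.26 to -2.09), and -2.73 without oocyte-transcript cells. The study itself picked Gimap4 as lower in KO on these same cells, so its direction here is not independent evidence. Gimap3, with 205 UMIs against 1, had a ratio of 0.00647 with an interval of 0.000163 to 0.0365. When Gimap3 and Gimap5 were summed, also after seeing the data, the log2 ratio was -0.68, against -0.58 for Gimap5 alone.

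Both genes were concentrated in few cells, which the counting intervals do not cover. Of the 205 WT UMIs of Gimap3, 72 (35.1%) lay in 1 cell and 75.6% in 5 cells. Of the 242 WT UMIs of Gimap4, 39 (16.1%) lay in 1 cell and 55.8% in 5, and in KO 1 cell held 15 of 29 (51.7%). Without the cell richest in Gimap4 in each pool its log2 ratio was -3.45. The richest cells of Gimap3 and Gimap4 were different ones. The top Gimap3 cell in WT had no Gimap4, 117 UMIs of Gimap6 and 65.2 CPM of oocyte genes, and the top Gimap4 cell had no Gimap3 and 98 UMIs of Gimap6. Gimap7 was as uneven, with 30 of 65 WT UMIs (46.2%) and 20 of 59 KO UMIs (33.9%) in single cells.

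Set against all genes, 2 of 8 members (Gimap4 and Gimap3) were at least 2-fold lower in KO, where 7.94% of 10720 genes were, and no member was at least 2-fold higher, where 6.98% were. The table kept genes by a mean count above 0.2 over all cells. Gimap3 and Gimap4 had 1 and 29 UMIs in the 234 kept KO cells, so they passed through their WT counts. Their place among the 2-fold lower genes is therefore not independent of that filter. The interval lay below a ratio of 1 for 6 of 8 members and for 35.7% of all genes, and above 1 for no member and for 39.2% of all genes. Without oocyte-transcript cells the interval lay below 1 for 7 of 8, against 33.6%, and above 1 for none, against 39.8%. In those cells the same 2 members were at least 2-fold lower, against 6.61%, and none was 2-fold higher, against 8.68%. The median log2 ratio of the members was -0.56 (range -5.69, with the 1 UMI of Gimap3 raised to 3, to 0.27). Over all genes the median was 0.02, with 5th and 95th percentiles of -1.45 and 1.18, so that most members lie within the spread of the whole table. 

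**Figure D2:**
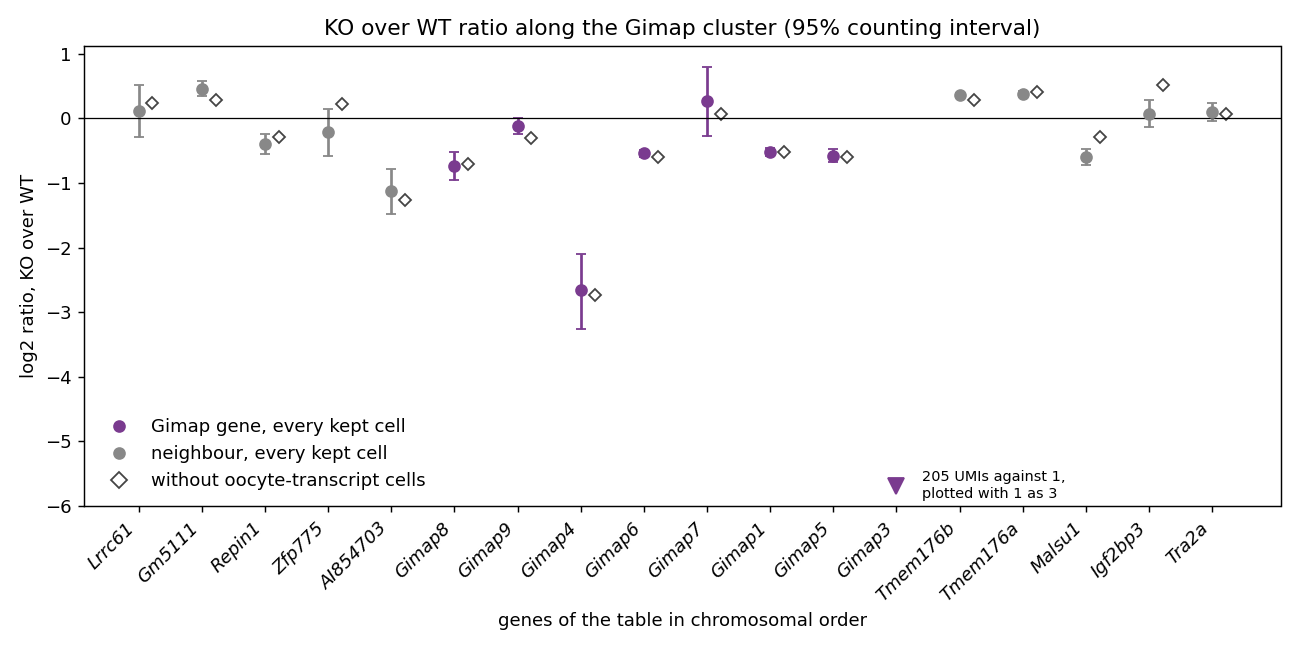
Log2 ratio of KO over WT for the 8 Gimap genes (purple) and the 5 nearest genes of the table on each side (grey), in chromosomal order; bars are 95% counting intervals, open diamonds leave out cells with oocyte transcripts, and the triangle is Gimap3 with its 1 KO UMI plotted as 3. Gimap4 (-2.65) and Gimap3 lie lowest, and Gimap7, which turned below 0 in thinned cells and with the authors' normalized values, is the only member above 0 here.

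The genes that flank the cluster did not share 1 direction. On the Gimap8 side the nearest gene, AI854703, had 269 WT and 93 KO UMIs, a log2 ratio of -1.12 (-1.48 to -0.78). Farther out, the zinc finger genes Zfp775 and Repin1 had -0.21 (-0.58 to 0.15) and -0.39 (-0.54 to -0.24), Gm5111 had 0.46 (0.35 to 0.58) and Lrrc61 had 0.12 (-0.28 to 0.51). On the Gimap3 side the membrane protein genes Tmem176b and Tmem176a were abundant, with 16561 and 6300 WT UMIs, and had ratios of 0.36 (0.33 to 0.40) and 0.38 (0.33 to 0.43). Next came Malsu1, a mitochondrial ribosome factor, with -0.60 (-0.72 to -0.48), then the RNA-binding protein genes Igf2bp3 with 0.07 (-0.14 to 0.28) and Tra2a with 0.10 (-0.04 to 0.24). Without oocyte-transcript cells Zfp775 turned to 0.22, Malsu1 moved to -0.29 and Igf2bp3 to 0.51, while AI854703 stood at -1.27.

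The share of cells with a member was compared after each kept cell was thinned to 20000 UMIs. Gimap1 was found in 229 of 259 WT cells (88.4%, 83.9 to 92.0) and 187 of 234 KO cells (79.9%, 74.2 to 84.9). Gimap6 was found in 83.8% of WT and 76.9% of KO cells, and Gimap5 in 55.2% and 47.4%. For these members the difference, KO minus WT, was -8.50 percentage points (-15.3 to -1.80), -6.86 (-14.2 to 0.43) and -7.78 (-16.8 to 1.34). These intervals cover counting error only and take the cells of 1 pool as independent, so whether they hold 0 is not read as a test. Without oocyte-transcript cells Gimap1 was in 163 of 189 WT cells (86.2%) and 184 of 231 KO cells (79.7%). Over 6 alternatives its difference ran from -8.42 to -4.38 percentage points, each nearer to 0 than the main value.

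The other members were in a minority of cells. Gimap9 was in 30.1% of WT and 28.6% of KO cells, Gimap8 in 18.9% and 13.2%, Gimap4 in 5.41% and 1.28%, Gimap3 in 5.02% and 0.427%, and Gimap7 in 1.54% and 2.14%. No cell type that should lack these genes was in the table, so Zp3, which encodes an egg coat protein, was taken as a gauge of foreign RNA. It was found in 44.8% of WT and 8.12% of KO cells, at 394 and 7.17 CPM. The WT shares of Gimap9, Gimap8, Gimap4, Gimap3 and Gimap7 and the KO shares of Gimap4, Gimap3 and Gimap7 lie below that gauge, so they are not read as shares of cells that express the gene or as a difference between the pools. The gauge differs between the pools and was itself abundant in WT, so it does not fix the background of these genes. Before thinning, WT cells with a UMI held on average 13.4 UMIs of Gimap9, 8.55 of Gimap8, 6.91 of Gimap4, 7.32 of Gimap3 and 5.91 of Gimap7. Without thinning, the WT and KO shares were 94.98% and 90.6% for Gimap1, 95.8% and 89.3% for Gimap6, 67.6% and 57.7% for Gimap5, 13.5% and 2.56% for Gimap4 and 10.8% and 0.427% for Gimap3.

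**Figure D3:**
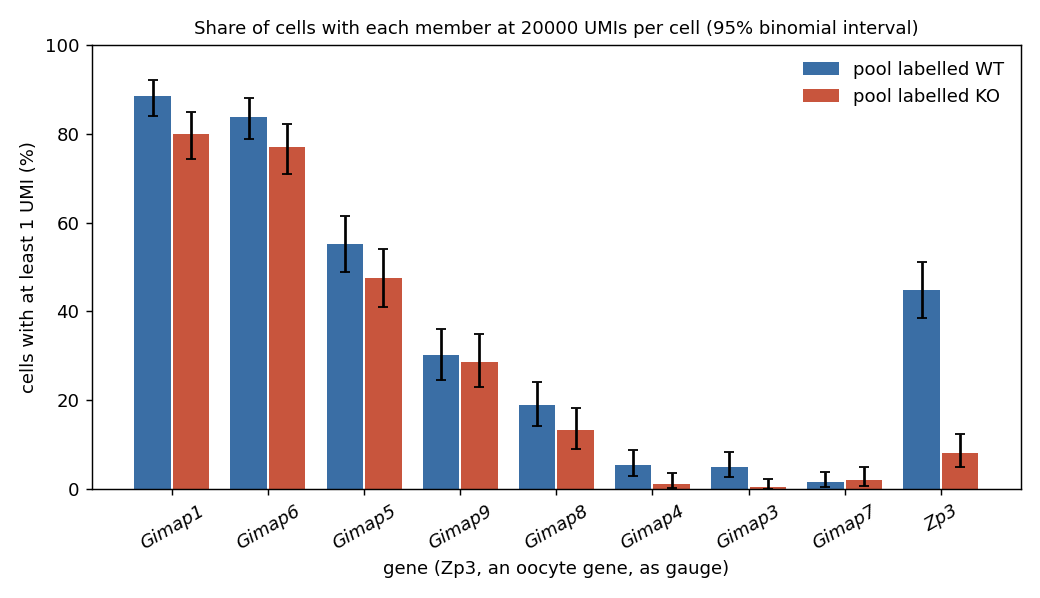
Share of cells, in percent, with at least 1 UMI of each Gimap gene after thinning to 20000 UMIs per cell, in 259 WT and 234 KO cells, with the oocyte gene Zp3 as gauge; bars are exact 95% binomial intervals. Gimap1 (88.4% and 79.9%), Gimap6 and Gimap5 lie above Zp3 in both pools.

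Nearly every cell held some Gimap RNA. At equal depth 253 of 259 WT cells (97.7%, 95.03 to 99.1) and 227 of 234 KO cells (97.0%, 93.9 to 98.8) had at least 1 member, a difference of -0.67 percentage points (-4.08 to 2.52). The pools differed in the amount per cell. The thinned WT cells held a median of 14 Gimap UMIs (quartiles 7.5 and 24, highest 115) and the KO cells a median of 10 (6 and 17, highest 76), so the ranges overlapped widely. At least 20 Gimap UMIs were found in 90 WT cells (34.7%, 29.0 to 40.9) and 40 KO cells (17.1%, 12.5 to 22.5), and at least 50 in 9 WT cells and 1 KO cell. The variance over the mean of the summed count was 12.3 in WT and 7.15 in KO, far above the 1 that counting alone gives.

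Per member, the median over cells was 4 UMIs in WT and 3 in KO for Gimap1, 5 and 2 for Gimap6, and 1 and 0 for Gimap5. The number of different members per cell averaged 2.88 ± 1.19 (SD over cells) in WT and 2.50 ± 1.06 in KO. Cells with 4 members made up 19.3% of WT and 12.8% of KO cells, cells with 5 made up 7.72% and 2.14%, and no cell held 7 or 8. Cells with 1 member made up 6.95% of WT and 12.8% of KO cells. Without oocyte-transcript cells the averages were 2.88 and 2.49.

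**Figure D4:**
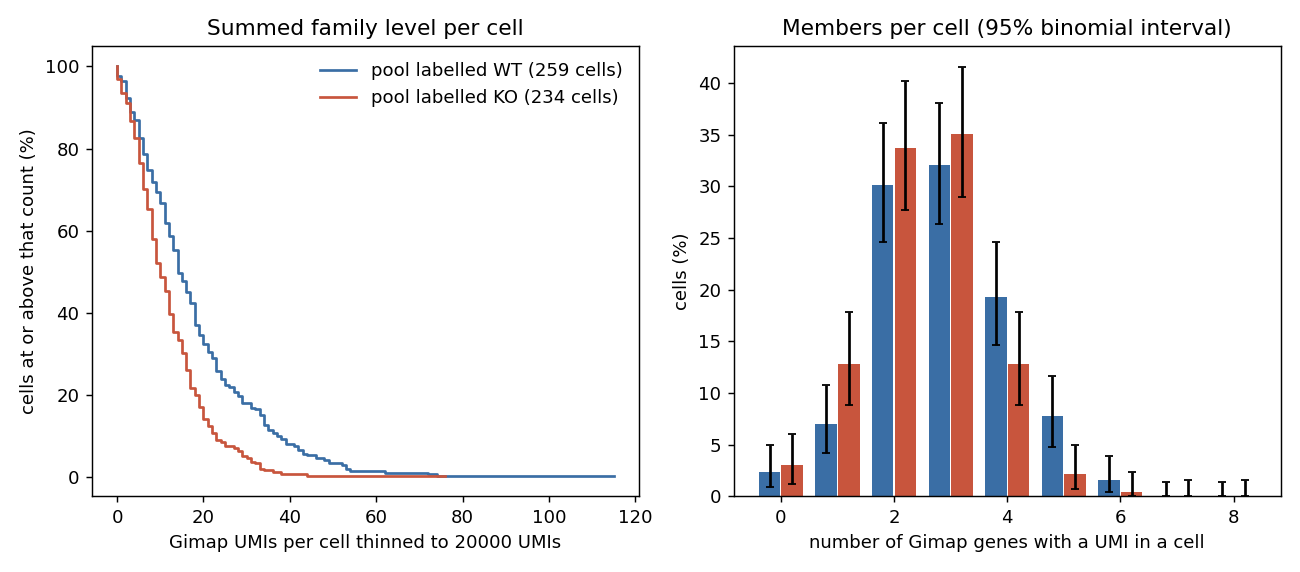
Left, share of cells (percent) with at least the number of Gimap UMIs on the x axis, in cells thinned to 20000 UMIs; right, share of cells by the number of different Gimap genes with a UMI, with exact 95% binomial intervals, in 259 WT and 234 KO cells. The WT curve lies to the right of the KO curve (median 14 against 10 UMIs), and cells with 4 to 6 members make up larger shares in WT.

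Co-detection was examined at equal depth, and for Gimap8, Gimap9, Gimap4 and Gimap3 it rests on shares that lie below the gauge in WT. Gimap1 and Gimap6 were found together in 198 WT cells (76.4%) and 146 KO cells (62.4%), and cells with Gimap1 alone of the pair made up 12.0% and 17.5%. Gimap6 was in 86.5% of the 229 WT cells with Gimap1 and in 63.3% of the 30 without. In KO the corresponding shares were 78.1% of 187 and 72.3% of 47. Gimap5 was in 71.4% of the 49 WT cells with Gimap8 and 51.4% of the 210 without, and in KO in 61.3% of 31 and 45.3% of 203. In WT, Gimap9 was in 32.7% of cells with Gimap6 and 16.7% of those without, against 29.4% and 25.9% in KO. The counting intervals of the shares with and without the other gene overlapped in each of these comparisons except Gimap6 by Gimap1 in WT.

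Over cells, Pearson's r between members at equal depth, a description without a test in which points share libraries, was weak. Over 259 WT cells the 28 pairs ran from -0.07 to 0.26 with a median of 0.08, and the highest values were 0.26 for Gimap8 with Gimap5, 0.26 for Gimap4 with Gimap6 and 0.24 for Gimap6 with Gimap1. Over 234 KO cells they ran from -0.11 to 0.21 with a median of 0.02. Gimap5 was in 24 of the 28 unthinned WT cells with Gimap3 (85.7%) and in 65.4% of the other 231, and these genes share the sequence described above. Gimap3 and Gimap4 occurred together in 5 of the 28 WT cells with Gimap3 (17.9%) and of the 35 with Gimap4 (14.3%). Among the 231 WT cells without Gimap3, Gimap4 was in 30 (12.99%), which lies within the interval of the share among those with it (6.06% to 36.9%).

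The genes whose level across WT cells was most like the summed Gimap level were sought among 9319 genes that averaged 0.5 UMI or more per kept cell. They were Ifitm1, an interferon-induced membrane protein gene (r = 0.45), Txnip, the thioredoxin-interacting protein gene (0.43), Shisa5 (0.43), Ftl1, the ferritin light chain (0.40), and B2m, the light chain of MHC class I (0.40). The same genes had r of 0.18, 0.17, 0.21, 0.19 and 0.19 over KO cells, ranks 41, 57, 18, 39 and 31. Without oocyte-transcript cells the WT value of Ifitm1 was 0.52. The median r of all genes was -0.01 in both pools.

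Cells were then divided by whether they held each of 10 genes of HSC state and lineage. In WT the 134 cells with Procr, which encodes the HSC marker EPCR, held 21.2 Gimap UMIs per thinned cell (median 18) and the 125 without held 15.0 (median 12). In KO the values were 12.8 (median 12) and 11.4 (median 9). The order was opposite for Itga2b, the megakaryocyte integrin CD41, in WT, with 14.7 (median 11) in 125 cells with it and 21.5 (median 17) in 134 without. In KO these means were 12.3 and 11.9, with medians of 9 and 11. Cells with the proliferation gene Mki67 held 15.2 in WT and 10.5 in KO, against 19.2 and 12.6 without it. For Tyrobp, a myeloid adaptor gene, the means were 19.0 with and 18.1 without in WT, and 11.6 and 12.7 in KO. Flt3, a receptor of lymphoid-primed progenitors, had 21.6 with and 17.6 without in WT, and 10.7 and 12.6 in KO. Mt1, a metallothionein gene, had 14.4 and 19.9 in WT, and 14.3 and 12.0 in KO, where 17 cells held it. For Esam, an adhesion molecule of HSCs, the means were 19.7 and 16.5 in WT and 12.6 and 12.1 in KO, and for Cd34 they were 18.6 and 17.2 in WT and 12.4 and 10.9 in KO. Slamf1 gave 16.8 and 18.7 in WT and 13 and 12.1 in KO, and Itgam 15.9 and 18.3 in WT and 11.4 and 12.4 in KO, with 12 KO cells holding Slamf1 and 7 WT cells holding Itgam. With and without the gene, the order of the means thus differed between the pools for Itga2b, Tyrobp, Flt3, Mt1 and Slamf1, and the difference was not tested. The counting intervals of the means with and without the gene overlapped for Itga2b, Slamf1 and Esam in KO. They also overlapped for Tyrobp, Itgam and Cd34 in both pools. The variance over the mean of the summed count was 12.3 in WT and 7.15 in KO. Such intervals are therefore too narrow for the spread over cells, and the other contrasts are not read as separated. For Itga2b the medians were lower in cells with it in both pools. Leaving out oocyte-transcript cells gave WT values of 21.3 and 14.9 for Procr and of 13.7 and 22.4 for Itga2b. Cells are not replicates, and no test of these divisions was made.

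The pathways in which GIMAP proteins have been placed were examined as lists. Of 10 Bcl2 family genes in the table, none was at least 2-fold higher and 1 was 2-fold lower, with a median log2 ratio of 0.27. Bok had -1.30 and Mcl1 -0.25 at the low end, and Bak1 0.93 and Bbc3 0.81 at the high end. Of 21 genes of Atg8 proteins and autophagy, 1 was 2-fold higher and none lower, with a median of 0.06. Ulk1, an autophagy kinase, had 1.35 and Atg9a 0.53, and Map1lc3a had -0.48 and Becn1 -0.40. Of 17 genes of GSK3 and mTOR signalling none was past 2-fold, with a median of 0.30, from -0.25 for Rictor and -0.20 for Eif4ebp1 to 0.95 for Axin1 and 0.98 for Mtor. These medians, and the 0.02 of all genes, lie on the other side of 0 from that of the Gimap genes. Of all genes, 6.98% were at least 2-fold higher in KO and 7.94% at least 2-fold lower.

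The lists of lymphoid priming and of lymphocyte quiescence and trafficking had medians above 0. Of 15 lymphoid priming genes, 2 were at least 2-fold higher, Ikzf1 (1.04) and Flt3 (1.03), where 6.98% of all genes were. None was 2-fold lower, where Tcf12 had -0.46, and the median was 0.41. Without oocyte-transcript cells 1 of the 15 was 2-fold higher, and in thinned cells none was, with medians of 0.44 and 0.39. Of 13 genes of lymphocyte quiescence and trafficking, 4 were higher and 1 lower, against 6.98% and 7.94% of all genes. Their median was 0.49. Tsc2 had 2.18 and Klf2 1.83, and S1pr1, a receptor for exit from tissue, had -1.30.

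Markers of other cells that express Gimap genes stood as follows, and their part in the Gimap difference was not tested. The 4 T cell markers in the table had a median log2 ratio of -0.47, with Thy1 at -2.85 and Lat at -0.96, and Lck at 0.02 and Cd247 at 0.37. Their summed level was 114 CPM in WT and 63.6 CPM in KO, and per cell it ran from 0 to 970 CPM in WT and from 0 to 1030 CPM in KO. The 4 NK and innate lymphoid markers had a median of -0.19 (Rora -0.42, Id2 -0.40, Klrb1c 0.03, Nkg7 0.26), and the 2 B cell markers had 0.17 (Cd74) and 0.64 (Cd79b). Of 10 endothelial markers, 1 was 2-fold higher, where 6.98% of all genes were, and 3 lower, where 7.94% were. Their median was 0.25. Vwf had -4.47 and Kdr -1.75, the latter 0.89 without oocyte-transcript cells, and Pecam1 had 1.45 and Emcn 0.99. Of 8 myeloid markers, 3 were higher and 1 lower, against the same 6.98% and 7.94% of all genes. Their median was 0.80, from Itgam (3.67) and Prtn3 (1.69) to S100a8 (-1.09) and S100a9 (-0.90).

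All 30 oocyte markers were 2-fold lower in KO, where 7.94% of all genes were. Their median was -5.83, from Fbxw18 (-8.59, -10.87 to -7.04, on 3 KO UMIs) and Fbxw27 (-7.94, -10.22 to -6.39, also on 3 KO UMIs) to Oas1c (-2.77) and Zbed3 (-1.91). The oocyte-transcript cells held 24.5% of the Gimap UMIs of WT, near their 27.0% share of cells. They held 16.1% of the Gimap9 UMIs, 26.8% of those of Gimap1 and 4.88% of those of Gimap3. Of the 14 HSC and sort markers, 1 was higher and 1 lower, near the 6.98% and 7.94% of all genes. Their median was -0.11, with Mecom at 1.14 and Cd34 at 0.77, and Slamf1 at -2.26 and Hoxb5 at -0.72. Sca1, the sort marker encoded by Ly6a, had -0.53 (-0.59 to -0.46), a ratio like that of Gimap1, and was named after its value was seen.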

How the data were processed

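Single HSCs were labelled as 4 WT and 4 KO libraries. The authors aligned reads to an mm9 mouse transcriptome, removed duplicates by UMI, dropped cells under 30% mapping, 2000 genes or 20000 transcripts, kept genes with a mean count above 0.2 and deposited log2 of the normalized count plus 1. The aligner and the normalization method are not given in the sources used here. The log2 was undone, and each cell's values were divided by its smallest step, which gave whole numbers for 100% of values within 0.01. The cell minimum was applied to the 10720 genes of the table, which left 93 of 586 cells out. Doublets were not called, and cells were not clustered. UMIs were summed per label. Intervals are exact (Poisson for CPM, Clopper-Pearson for shares and for ratios of 2 counts). Differences of shares combine those of the shares. In log2 ratios, counts under 3 were raised to 3. For shares and per-cell values, cells were thinned at random to 20000 UMIs, and r used log2(CPM/100 + 1). The code was tested on simulated data. Start regions are from RefSeq (GRCm38.p6), and their coordinates and the mm9 files were not mixed.

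The members and lists were chosen with earlier results of these data known. The genes named are the members, Med23, the 2 largest ratios each way in each list, 5 neighbours on each side and the 5 genes of highest r in WT. The 10 genes that divided cells were another list. A gene that this rule would also name in the lymphoid lists is not reported here. Zp3 and Ly6a were named after values were seen. Alternatives were other cell minimums, thinning, scalings, the authors' normalized values, and leaving out the richest cell or oocyte-transcript cells. Those that summed Gimap3 and Gimap5, left Gimap1 and Gimap6 out of the sum, or left each list gene's richest cell out were added after seeing the data. Python 3.11.15, numpy 2.4.6, scipy 1.17.1 and pandas 2.3.3 were used.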

Additional observations from a re-analysis of the deposited data

How the results depend on the processing

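Each of the 9 alternatives kept the summed Gimap level lower in KO, at log2 ratios from -0.58 to -0.52. Requiring 3000 genes and 30000 UMIs gave -0.57, and it was -0.58 in thinned cells and -0.57 without oocyte-transcript cells. Of the members, Gimap7 alone changed sign under an alternative, from -0.59 to 0.57 over 8. Gimap8 moved to -1.04 in thinned cells, Gimap5 to -0.24 and Gimap9 to -0.32 with the authors' normalized values, and Gimap3 to -3.73 in thinned cells. The shift of all ratios was -0.03 under median-of-ratios scaling and -0.02 under upper-quartile scaling. The difference in the share of cells with any member ran from -3.30 to 0.14 percentage points over 6 alternatives. Leaving out oocyte-transcript cells moved list medians to -0.39 (NK), 0.52 (B cell), 0.42 (endothelial), -2.42 (oocyte), 0.58 (myeloid), -0.27 (HSC and sort) and 0.58 (Bcl2 family). Thinning moved them to 0.23 (B cell), -4.72 (oocyte), 1.07 (myeloid), 0.16 (HSC and sort) and 0.25 (quiescence and trafficking), and leaving out each gene's richest cell, chosen after seeing the data, moved the NK median to 0.0312. The cause of these moves was not tested. Gimap3, Gimap4 and Gimap7 are limited by depth, with 1, 29 and 59 UMIs in KO. No paired analysis was possible because cells are named by genotype and cell number alone and no test was run, and libraries could not be left out in turn. The alternative without cells that hold Cd3d, Cd3e or Cd3g was not run, since these genes are not among the rows used here.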
